A study of Mus musculus with 32 samples.

Results

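Cd72, Fcrla, Bst1, Bcar3 and Capn2 are genes that the B-cell transcription factor Pax5 activates. Their levels were followed across 32 Affymetrix mouse gene arrays in 7 groups whose germline carries 2 or 1 intact Pax5 alleles. The 5 genes were taken by their exact symbol in the platform annotation, out of 19938 genes that a probeset names alone. A gene with several probesets would have been represented by the one selected on the highest mean log2 value over all arrays, but each has a single probeset. The genes had been proposed with expression results of these arrays known, so the p-values below describe the comparisons and are not independent support.

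The leukemia experiment holds bone marrow (BM) of 6 leukemic Pax5+/- mice and of 6 leukemic Pax5+/-;Myd88+/- mice, with 4 samples of B220low IgM- proB and preB cells sorted from BM of healthy wild type (WT) mice. The proB experiment holds cells of healthy mice, with 4 samples for WT, 4 for Pax5+/-, 4 for Pax5+/-;Myd88+/- and 4 for Pax5+/-;Myd88-/-. Myd88 is the adaptor of most Toll-like receptors. Pax5+/- and Myd88+/- are constitutive deletions of 1 allele, on a mixed C57BL/6 and CBA background. The paper reports mutations of the remaining Pax5 allele in some leukemias of Pax5+/- mice. Labels do not give the state of that allele in the leukemias here. Array values of Pax5 are RNA levels and were not resolved by allele. The growth notes place the animals in a pathogen-free area until 2 months of age and in a conventional facility thereafter. Labels describe the proB samples as B220+ marrow cells isolated with magnetic beads, whereas the methods add growth with IL7 on ST2 stromal feeder cells, from mice of 2 to 3 weeks, for all genotypes but Pax5+/-;Myd88-/-. Ages at leukemia are not used here.

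Pax5 is switched on at the start of the proB stage. It represses genes of other lineages and activates a set of genes that give B cells their surface receptors, signalling adaptors and adhesion machinery. One intact allele is compatible with B-cell development, and PAX5 is among the genes most often altered in childhood B-cell acute lymphoblastic leukemia.

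The genes lie on 4 chromosomes (GRCm38, the assembly named mm10). Cd72 spans chr4:43447724-43455102 and Pax5 lies on the same chromosome at chr4:44524748-44710694. Fcrla is at chr1:170917594-170932216 and Capn2 at chr1:182467253-182517610. Bst1 is at chr5:43818880-43843468 and Bcar3 at chr3:122419757-122530191. The promoters below, from 250 bases before to 50 bases after an annotated RefSeq start (GRCm38.p6), are shown because these genes are grouped as targets of 1 factor although their levels differed in direction between groups. They were searched on both strands for the Pax5 paired-domain core GCGTGAC, the looser GCNTGAC that contains it, the Ebf1 palindrome core CCCNNGGG and the Runx core TGTGGT. No promoter of Bst1 was available, so Bst1 is not shown and was not searched. Capitals mark the only match, TGTGGT at bases 124 to 129 of the first Bcar3 promoter.
Cd72, chr4:43454577-43454876, minus strand: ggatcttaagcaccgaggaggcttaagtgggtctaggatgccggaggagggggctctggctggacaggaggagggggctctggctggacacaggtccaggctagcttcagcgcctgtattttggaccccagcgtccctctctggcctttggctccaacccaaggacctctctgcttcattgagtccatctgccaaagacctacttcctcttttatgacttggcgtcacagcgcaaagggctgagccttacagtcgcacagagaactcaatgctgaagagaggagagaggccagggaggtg
Fcrla, chr1:170927534-170927833, minus strand: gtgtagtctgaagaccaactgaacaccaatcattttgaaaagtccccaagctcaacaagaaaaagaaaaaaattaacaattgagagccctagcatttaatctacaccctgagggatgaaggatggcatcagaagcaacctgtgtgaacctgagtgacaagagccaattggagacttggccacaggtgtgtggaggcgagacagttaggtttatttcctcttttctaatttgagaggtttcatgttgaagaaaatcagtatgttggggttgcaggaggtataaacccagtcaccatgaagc
Bcar3, chr3:122419507-122419806, plus strand: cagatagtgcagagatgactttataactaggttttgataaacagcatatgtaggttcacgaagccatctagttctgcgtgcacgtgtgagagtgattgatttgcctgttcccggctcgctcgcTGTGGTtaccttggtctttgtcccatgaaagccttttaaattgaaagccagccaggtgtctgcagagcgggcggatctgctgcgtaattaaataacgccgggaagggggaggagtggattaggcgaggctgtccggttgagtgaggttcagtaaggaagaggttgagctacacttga
Capn2, chr1:182517561-182517860, minus strand: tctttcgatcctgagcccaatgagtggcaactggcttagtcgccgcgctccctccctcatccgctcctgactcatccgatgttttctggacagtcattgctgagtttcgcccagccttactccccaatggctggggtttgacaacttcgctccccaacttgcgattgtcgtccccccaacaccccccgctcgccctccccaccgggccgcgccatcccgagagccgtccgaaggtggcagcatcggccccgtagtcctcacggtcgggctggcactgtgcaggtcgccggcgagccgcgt
Of 32851 promoters of this length, 2.09% hold GCGTGAC, 10.7% hold GCNTGAC, 13.7% hold CCCNNGGG and 16.8% hold TGTGGT. The absence of the Pax5 core says only that these letters are not in the windows shown. The second annotated promoter of Bcar3 held none of the 4 motifs. GC content was 57.7% for Cd72, 42.7% for Fcrla, 49.3% for the first Bcar3 promoter and 64.3% for Capn2, against a median of 52.7% over all promoters.

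Values are log2 expression from the robust multi-array average (RMA), where a difference of 1 is a 2-fold change. Array medians lay between 6.88 and 7.03. Some libraries stood apart. The 4 proB WT arrays formed 2 close pairs, with a correlation of 0.9982 between replicates 1 and 3 and of 0.9979 between replicates 2 and 4, against 0.9906 to 0.9912 across the pairs. The proB Pax5+/- arrays paired likewise, at 0.9965 between replicates 1 and 3 and 0.9976 between replicates 2 and 4, against 0.9913 to 0.9951 across. The separate origin of these arrays was not tested. For the 5 genes in Pax5+/- against WT proB cells, results are also given with each WT pair averaged, but the Pax5+/- arrays were counted singly there. The mean of 7 B lineage markers was 11.84 to 12.08 in the sorted WT cells and 11.65 to 12.26 in the proB samples. It was 9.34 to 10.04 in 4 leukemias, replicates 2 and 4 of each genotype, and 11.09 to 11.95 in the other 8. Xist, the RNA of the inactive X chromosome, was at 12.4 to 12.52 in proB Pax5+/-;Myd88+/- and 12.29 to 12.49 in proB Pax5+/-;Myd88-/- samples. It was at 5.32 to 6.11 in proB WT and 5.61 to 5.97 in proB Pax5+/- samples. Sex and Myd88 genotype therefore cannot be told apart in comparisons of proB groups with and without a Myd88 deletion. Xist did not separate WT from Pax5+/- samples, nor Pax5+/-;Myd88+/- from Pax5+/-;Myd88-/- samples. In the leukemia experiment Xist was at 12.23 to 12.46 in sorted WT cells, 5.44 to 9.72 in Pax5+/- leukemias (median 5.58) and 5.39 to 12.8 in Pax5+/-;Myd88+/- leukemias, so sex also differed between the groups of the leukemia comparisons and of those between experiments, and its part in them was not tested. None of the 5 genes is X-linked.

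Pax5 itself followed its allele number in the proB experiment. WT samples measured 11.53, 11.81, 11.63 and 11.81 and Pax5+/- samples 10.86, 11.29, 10.99 and 11.34. Pax5+/-;Myd88+/- samples measured 11.15, 11.41, 11.02 and 11.26, and Pax5+/-;Myd88-/- samples 11.05, 10.96, 10.93 and 10.88. All 12 samples with 1 intact allele were below all 4 WT samples. The difference from WT was -0.58 ± 0.11 (SE), -0.49 ± 0.11 and -0.74 ± 0.11, which is 67.1%, 71.4% and 59.9% of the WT level (adjusted p = 0.00203, 0.00889 and 0.00016). In the leukemias Pax5 spread more widely, from 7.69 through a median of 11.48 to 12.29 in Pax5+/- and from 9.07 through 10.82 to 11.95 in Pax5+/-;Myd88+/-, against 11.91, 11.81, 11.91 and 12.05 in sorted WT cells. Both leukemia groups overlapped the WT range, and neither difference passed (adjusted p = 0.392 and 0.287). Myd88 also followed its label, its proB mean being 9.46 for WT, 9.28 for Pax5+/-, 8.64 for Pax5+/-;Myd88+/- and 7.32 for Pax5+/-;Myd88-/-.

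**Figure D1:**
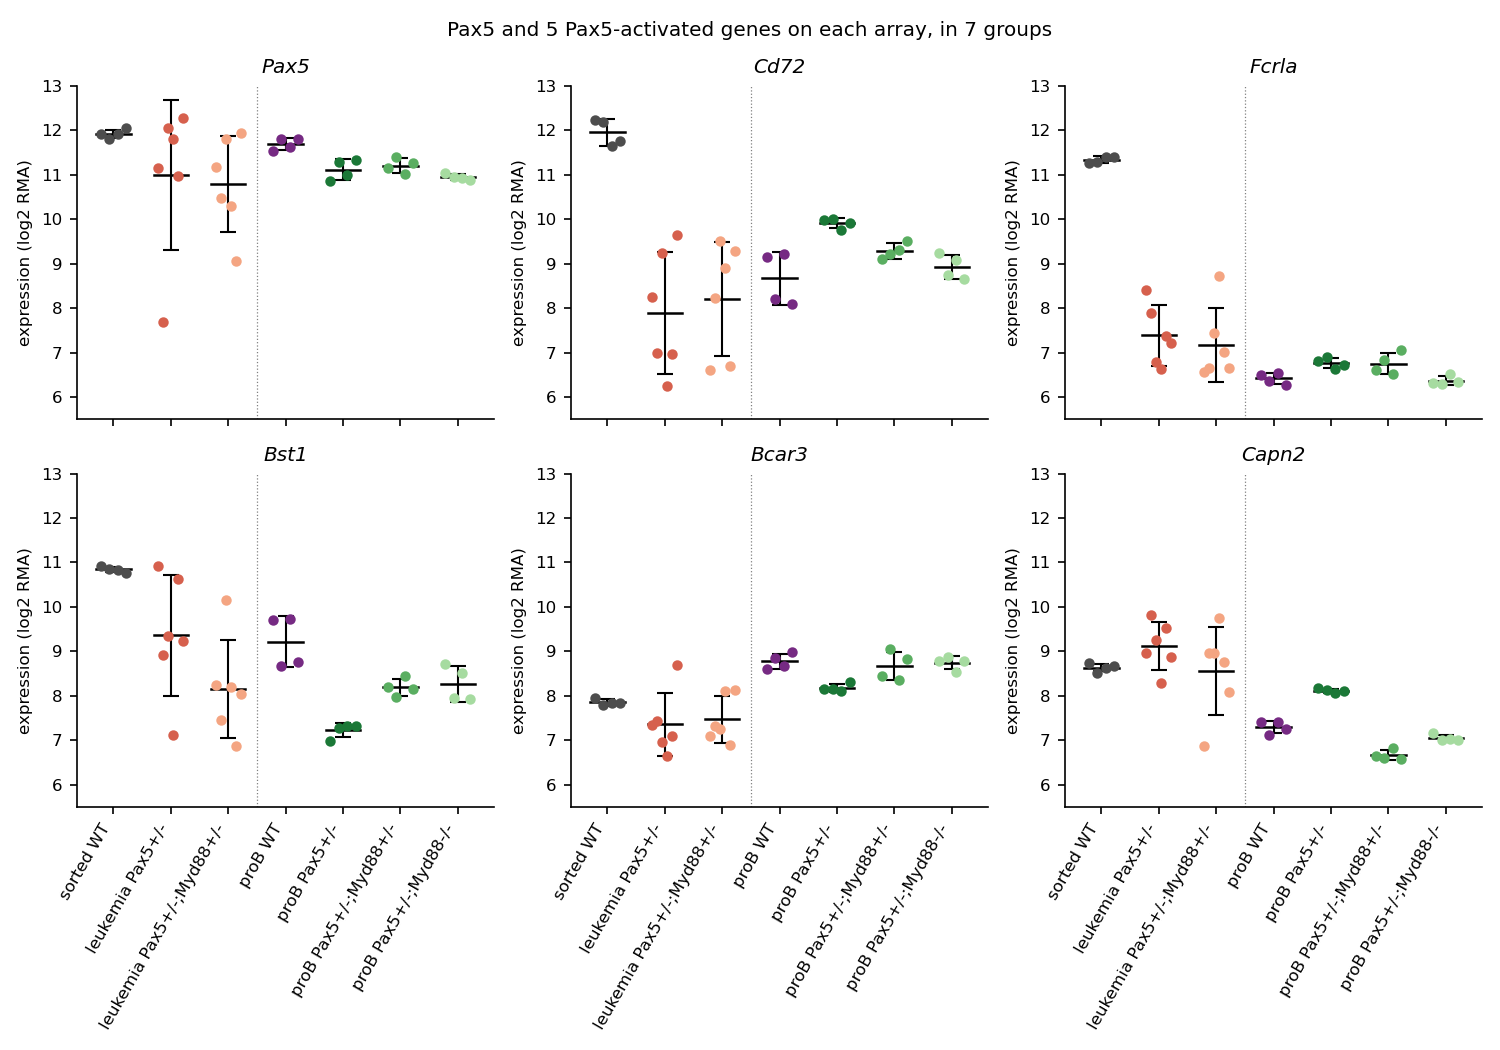
RMA expression (log2) of Pax5 and the 5 genes on each array, by group. Points are arrays, the long line is the group mean and the bars are 1 SD; a dotted line separates the leukemia experiment (n = 4, 6 and 6) from the proB experiment (n = 4 each). Cd72 and Fcrla of the 12 leukemias all lie below the 4 sorted WT samples, and among the proB groups Bst1 is lowest and Cd72 and Capn2 are highest in Pax5+/- cells.

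Between leukemias and sorted WT cells, the 5 genes divided into those that were far lower and those that did not pass. To be called, a gene needed both a log2 change beyond 1 in size and an adjusted p under 0.05. In Pax5+/-;Myd88+/- leukemias 3 of the 5 fell, Cd72, Fcrla and Bst1, where 7.63% of all probesets were called and 4.3% were called lower. In Pax5+/- leukemias 2 of the 5 fell, Cd72 and Fcrla, where 4.44% were called and 1.72% were called lower. Values of 3 genes did not overlap between Pax5+/-;Myd88+/- leukemias and WT (27.5% of all probesets did not), and values of 2 did not overlap between Pax5+/- leukemias and WT (21.2%). Both comparisons share the 4 WT samples. Leukemic marrow was not sorted, so fewer cells that express a gene and less RNA per cell cannot be told apart.

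Cd72, an inhibitory co-receptor of the B-cell antigen receptor, measured 12.23, 12.2, 11.64 and 11.76 in sorted WT cells. In Pax5+/- leukemias it ran from 6.25 through a median of 7.62 to 9.65, and in Pax5+/-;Myd88+/- leukemias from 6.6 through 8.57 to 9.52. All 12 leukemias were below the lowest WT sample. The fall was -4.07 ± 0.70 (16.7-fold, adjusted p = 0.00073) and -3.75 ± 0.70 (13.5-fold, adjusted p = 0.000731). Without the 4 leukemias of low B lineage markers it was -3.43 ± 0.74 and -3.93 ± 0.74.

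Fcrla, an Fc receptor-like protein that stays inside B cells, measured 11.26, 11.29, 11.4 and 11.41 in sorted WT cells. It ranged from 6.62 through 7.3 to 8.42 in Pax5+/- and from 6.56 through 6.84 to 8.73 in Pax5+/-;Myd88+/- leukemias. Its fall was -3.95 ± 0.40 (15.5-fold, adjusted p = 7.54e-06) and -4.16 ± 0.40 (17.9-fold, adjusted p = 1.28e-06). These leukemia levels were near the middle of each array, above 55.3% and 52.4% of its probesets on average, whereas the WT levels were above 95.9%.

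Bst1 encodes CD157, a surface enzyme of the ADP-ribosyl cyclase family found on B precursors, myeloid cells and marrow stroma. It measured 10.91, 10.86, 10.83 and 10.77 in sorted WT cells. Overlap with WT was present in 1 of the leukemia genotypes. Pax5+/-;Myd88+/- leukemias lay from 6.86 through 8.11 to 10.15, all below WT, with a fall of -2.69 ± 0.66 (6.45-fold, adjusted p = 0.0052). Pax5+/- leukemias lay from 7.11 through 9.3 to 10.93, and the top sample exceeded every WT sample. The difference of -1.48 ± 0.66 did not pass (adjusted p = 0.113), but was called with all 32 arrays in 1 fit (adjusted p = 0.026) and with array weights (-1.62, adjusted p = 0.0267). The genotypes themselves differed by -1.21 ± 0.59 (adjusted p = 0.125), and none of the 5 genes was called by limma between the leukemia groups, where 3.82% of all probesets were, nor had any an unadjusted p under 0.05, which 44.3% had. Without Pax5+/-;Myd88+/- replicate 3 this Bst1 difference was -1.61 (adjusted p = 0.0303), and without Pax5+/- replicate 4 it was -1.66 (adjusted p = 0.0211), both called.

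Bcar3 and Capn2 did not pass in the leukemias. Bcar3, an adaptor that binds the adhesion scaffold p130Cas, measured 7.95, 7.78, 7.83 and 7.83 in sorted WT cells, 6.65 to 8.69 in Pax5+/- leukemias (median 7.22) and 6.9 to 8.13 in Pax5+/-;Myd88+/- leukemias (median 7.29). The differences were -0.49 ± 0.33 and -0.38 ± 0.33 (adjusted p = 0.298 and 0.425). Capn2, the catalytic subunit of the calcium-dependent protease m-calpain, measured 8.73, 8.52, 8.62 and 8.66 in WT, 8.29 to 9.81 (median 9.1) in Pax5+/- and 6.86 to 9.74 (median 8.85) in Pax5+/-;Myd88+/- leukemias. Its differences were 0.48 ± 0.42 and -0.08 ± 0.42 (adjusted p = 0.423 and 0.912).

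Markers of other cells moved with these groups. Stromal markers averaged 6.65 to 6.79 in sorted WT cells, 8.33 to 9.43 in Pax5+/- and 7.38 to 9.92 in Pax5+/-;Myd88+/- leukemias, and 6 and 5 of the 8 listed genes rose. Platelet markers averaged 6.17 to 6.26, 8.58 to 11.0 and 6.2 to 9.88 in the same order, with 4 and 1 of 4 higher. NK cell markers went the other way, from 8.23 to 8.95 in WT cells to 6.08 to 6.92 and 5.98 to 6.91, with 5 of 7 genes falling in each comparison. Monocyte and macrophage markers averaged 7.71 to 8.12, 8.12 to 9.55 and 7.02 to 10.2, with 2 of 8 genes higher in each comparison. T cell markers averaged 7.0 to 7.14, 6.67 to 7.28 and 6.48 to 7.69, with 1 of 6 lower in each. Of the 7 B lineage markers, 0 were called in Pax5+/- leukemias and 2 were called lower in Pax5+/-;Myd88+/- leukemias. Granulocyte markers averaged 7.21 to 9.42, 7.17 to 11.59 and 6.77 to 10.24, and plasmacytoid dendritic cell markers 10.26 to 10.71, 8.48 to 11.56 and 8.08 to 12.18, with no gene called. Erythroid markers averaged 8.92 to 9.38, 6.86 to 8.33 and 6.79 to 9.7, with 2 of 3 lower in each comparison. Of all probesets, 4.44% were called in Pax5+/- and 7.63% in Pax5+/-;Myd88+/- leukemias against WT. Calls of the 5 genes were as above without the 4 leukemias lowest in B lineage markers, but Bst1 moved, from -1.48 to -0.81 in Pax5+/- leukemias against WT and from -1.21 to -1.72 between the leukemia genotypes (adjusted p = 0.0509). The part of the other cell types in the results was not tested.

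**Figure D2:**
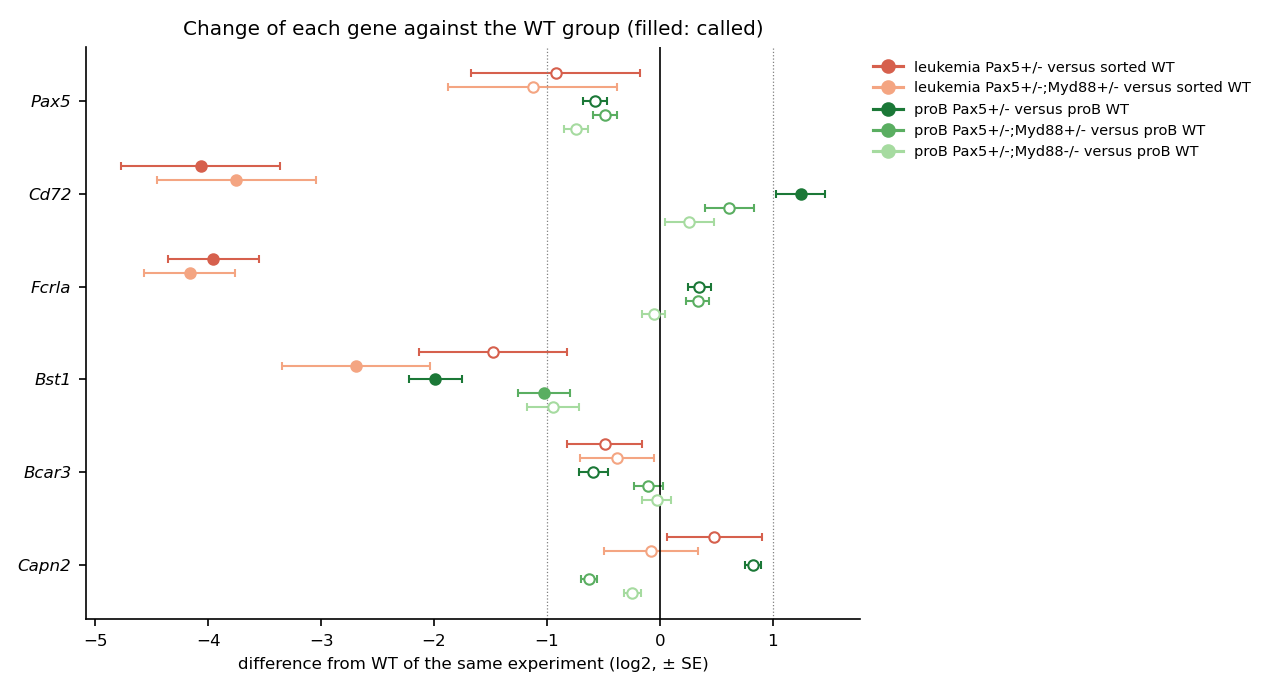
Difference of Pax5 and each of the 5 genes from the WT group of the same experiment (log2, horizontal axis), for 2 leukemia and 3 proB comparisons. Points are limma estimates, bars are 1 SE, filled points are called (adjusted p under 0.05 and change over 1, dotted lines) and open points are not. Cd72 and Fcrla lie near -4 in the leukemias and at or above 0 in most proB groups, while Bst1 lies below 0 throughout.

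In proB cells the loss of 1 Pax5 allele went with changes in both directions. Bst1 fell 3.97-fold and Cd72 rose 2.37-fold in Pax5+/- against WT cells, 2 called genes of the 5, where 1.08% of all probesets were called. Without a limit on size, a count added after the data were seen, all 5 genes had an adjusted p under 0.05, which 7.06% of probesets had, and all 5 showed no overlap between the groups, which 10.2% of probesets did. Cd72, Fcrla and Capn2 were higher and Bst1 and Bcar3 lower. With the WT pairs averaged, 3 of the 5 remained past that threshold, Cd72, Bst1 and Capn2, and Fcrla (adjusted p = 0.209) and Bcar3 (adjusted p = 0.0577) did not. In a single fit of all 32 arrays, whose spread includes the leukemias, none of the 5 was called (Cd72, adjusted p = 0.489, and Bst1, adjusted p = 0.0661).

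Bst1 measured 9.7, 8.67, 9.73 and 8.76 in WT cells and 6.99, 7.27, 7.32 and 7.32 in Pax5+/- cells, a fall of -1.99 ± 0.23 (adjusted p = 2.15e-05). The WT values divided by pair, with means of 9.72 for replicates 1 and 3 and 8.72 for replicates 2 and 4. Both were above every Pax5+/- value. The difference was -2.56 between odd-numbered arrays and -1.42 between even-numbered arrays.

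Cd72 measured 9.15, 8.21, 9.23 and 8.1 in WT cells and 9.99, 10.01, 9.77 and 9.91 in Pax5+/- cells, a rise of 1.25 ± 0.22 (adjusted p = 0.00113). In this comparison it lay higher with 1 Pax5 allele than with 2. Against WT it did not pass in Pax5+/-;Myd88+/- (adjusted p = 0.13) or Pax5+/-;Myd88-/- cells (adjusted p = 0.468), which also have 1 Pax5 allele. The leukemias lay below sorted WT cells, but that comparison also differs in leukemic state and sorting, so it does not isolate Pax5 allele number. Its WT level also divided by pair, 9.19 against 8.16, and the difference was 0.69 between odd and 1.8 between even arrays. Averaging the pairs kept the call (adjusted p = 0.00346).

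Capn2 measured 7.4, 7.11, 7.4 and 7.25 in WT and 8.17, 8.13, 8.06 and 8.1 in Pax5+/- cells. Its difference of 0.83 ± 0.07 (1.77-fold, adjusted p = 7.79e-07) was below the size limit of a call. Bcar3 was lower in Pax5+/- cells, 8.16, 8.15, 8.1 and 8.31 against 8.6, 8.84, 8.66 and 8.98 in WT, by 0.59 ± 0.13 (adjusted p = 0.00817). Fcrla was low in all proB samples, at 6.49, 6.37, 6.53 and 6.28 in WT and 6.82, 6.89, 6.64 and 6.72 in Pax5+/- cells. It lay above 40.1% of probesets in WT and 46.5% in Pax5+/- cells, so the difference of 0.35 ± 0.10 (adjusted p = 0.0491) is one between values in the lower part of the array.

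With 1 or no intact Myd88 allele beside Pax5+/-, Capn2 was lower than with Pax5+/- alone and was called in both comparisons. Cells of Pax5+/-;Myd88+/- against Pax5+/- had 1 of the 5 genes called, Capn2, where 0.812% of all probesets were called. Cells of Pax5+/-;Myd88-/- against Pax5+/- had 2 called, Capn2 and Bst1, where 0.985% were. In the latter comparison all 5 had an adjusted p under 0.05 at any size (11.5% of probesets did) and all 5 showed no overlap (16.3% did). Both comparisons use the Pax5+/- samples that entered the comparison with WT, so the comparisons are not independent of each other. Plasmacytoid dendritic cell markers moved with these groups. Their mean was 7.46 to 7.7 in Pax5+/-, 7.98 to 8.66 in Pax5+/-;Myd88+/- and 8.2 to 8.4 in Pax5+/-;Myd88-/- cells, with 1 and 2 of 5 genes higher, and their part in the results was not tested.

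Capn2 measured 6.65, 6.6, 6.83 and 6.58 with Pax5+/-;Myd88+/- and 7.16, 7.01, 7.02 and 7.0 with Pax5+/-;Myd88-/-. Against Pax5+/- cells it fell by 1.45 ± 0.07 (2.73-fold, adjusted p = 7.49e-10) and by 1.07 ± 0.07 (2.1-fold, adjusted p = 3.76e-08). The group with 1 Myd88 allele was the lowest, below all samples with none, and the groups differed by 0.38 ± 0.07 (adjusted p = 0.0028). Capn2 in Pax5+/-;Myd88+/- cells was also below WT, by -0.63 ± 0.07 (adjusted p = 1.53e-05), with no overlap.

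Bst1 measured 8.19, 7.98, 8.44 and 8.15 with Pax5+/-;Myd88+/- and 8.72, 7.94, 8.5 and 7.92 with Pax5+/-;Myd88-/-. Its level stood between those of Pax5+/- and WT cells. Against Pax5+/- it was higher by 0.97 ± 0.23 (adjusted p = 0.0227, not called) and by 1.05 ± 0.23 (adjusted p = 0.0089, called). Against WT it was lower by 1.03 ± 0.23 (adjusted p = 0.0117, called) and by 0.95 ± 0.23 (adjusted p = 0.0113, not called). These 4 values lie beside the size limit of 1, and single samples moved them across it. The first was 1.03 and called without Pax5+/-;Myd88+/- replicate 2. The second was 0.97, 0.90 and 0.97, and not called, without Pax5+/- replicate 1 or without Pax5+/-;Myd88-/- replicate 1 or 3. The third was -0.86, -0.85 and -0.95, and not called, without WT replicate 1, WT replicate 3 or Pax5+/-;Myd88+/- replicate 2. The fourth was -1.13, -1.10, -1.09 and -1.02, and called, without WT replicate 2 or 4 or Pax5+/-;Myd88-/- replicate 1 or 3.

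Cd72 measured 9.11, 9.22, 9.3 and 9.52 with Pax5+/-;Myd88+/- and 9.24, 8.75, 9.08 and 8.66 with Pax5+/-;Myd88-/-. All 8 were below the 4 Pax5+/- values. The differences from Pax5+/- were -0.63 ± 0.22 (adjusted p = 0.155) and -0.99 ± 0.22 (adjusted p = 0.00778). The latter became a call without Pax5+/- replicate 3 (-1.04), or without Pax5+/-;Myd88-/- replicate 1 (-1.09) or 3 (-1.04). Against WT neither passed (0.62 ± 0.22, adjusted p = 0.13, and 0.26 ± 0.22, adjusted p = 0.468).

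The mean of Bcar3 was close to that of WT, with values of 8.44, 9.05, 8.36 and 8.82 with Pax5+/-;Myd88+/- and 8.78, 8.87, 8.54 and 8.78 with Pax5+/-;Myd88-/-. It differed from Pax5+/- cells by 0.49 ± 0.13 (adjusted p = 0.0433) and 0.56 ± 0.13 (adjusted p = 0.0111), and from WT by less than its SE. Fcrla was at 6.6, 6.83, 6.52 and 7.06 with Pax5+/-;Myd88+/- and at 6.31, 6.3, 6.52 and 6.33 with Pax5+/-;Myd88-/-. It differed by -0.40 ± 0.10 (adjusted p = 0.0189) between the latter and Pax5+/- cells. Counts against WT were 1 of 5 called in Pax5+/-;Myd88+/- cells (Bst1, 1.15% of probesets called) and 0 of 5 in Pax5+/-;Myd88-/- cells (1.28%), where limma gave 2 genes, Bst1 and Capn2, at an unadjusted p under 0.05, which 28.6% of probesets had. Between the latter genotypes none of the 5 was called by limma (0.808%), and 2, Fcrla and Capn2, had an unadjusted p under 0.05, which 27.2% of probesets had.

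Stromal markers also differed between odd and even proB samples. Their mean was 8.45 on odd and 7.78 on even WT arrays. The odd and even means were 8.51 and 7.34 for Pax5+/-, 8.14 and 7.51 for Pax5+/-;Myd88+/-, as well as 7.62 and 7.38 for Pax5+/-;Myd88-/-. Bst1 was higher on odd arrays by 1.0 in WT and by 0.68 in Pax5+/-;Myd88-/- cells. On the odd WT arrays B lineage markers (12.18 against 11.67) and monocyte and macrophage markers (6.86 against 6.35) were also higher, and their part was not tested. In Pax5+/- cells, where the stromal difference was largest at 1.17, Bst1 was 0.14 lower on odd arrays. With odd against even arrays as a block, a setting added after the data were seen, no call of the 5 genes changed in a proB comparison. Each group held as many odd as even arrays, so this block could change only the spread and not the differences. The part of the stromal markers in the results was not tested.

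**Figure D3:**
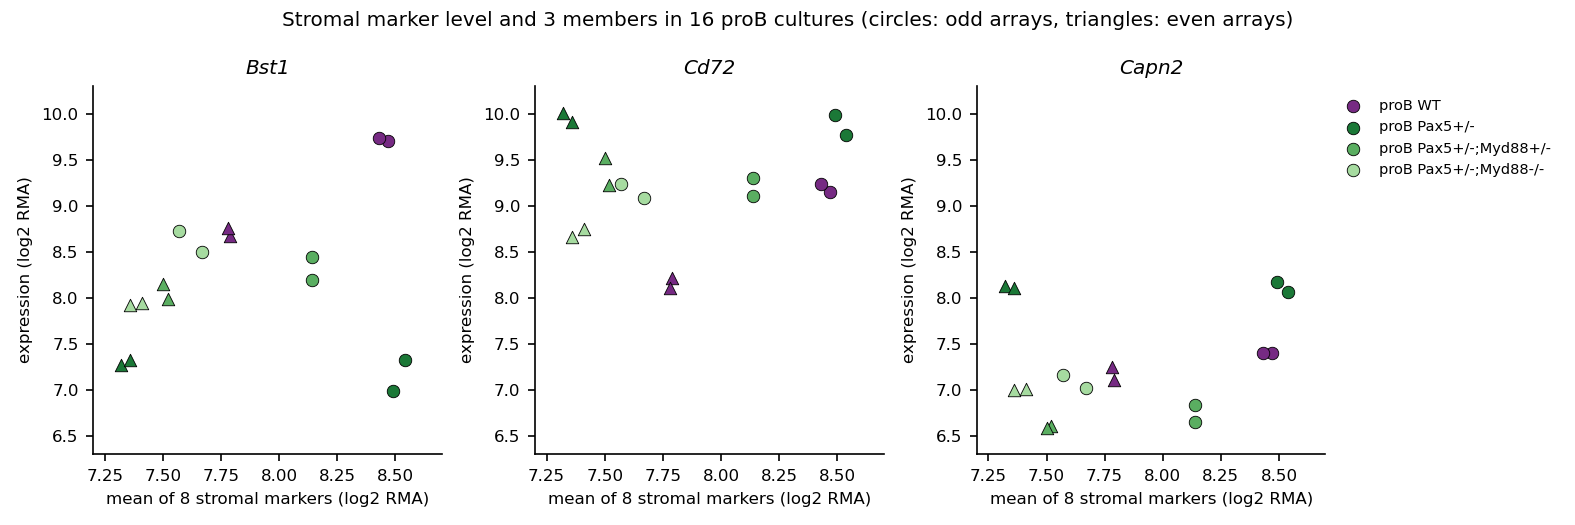
Bst1, Cd72 and Capn2 (vertical, log2 RMA) against the mean of 8 stromal markers (horizontal, log2 RMA) in the 16 proB samples. Circles are odd-numbered and triangles even-numbered arrays, and colours are genotypes. Bst1 of the Pax5+/- samples stays between 6.99 and 7.32 at both ends of the stromal range, and in WT it is higher on the odd arrays.

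The change against WT differed between the experiments for Cd72 and Fcrla. For Pax5+/-, the difference of the changes (leukemia minus proB) was -5.31 ± 0.81 for Cd72 (adjusted p = 2.49e-05) and -4.30 ± 0.45 for Fcrla (adjusted p = 8.59e-08), 2 of the 5 genes, where 5.79% of probesets were called. For Pax5+/-;Myd88+/- it was -4.37 ± 0.81 for Cd72 (adjusted p = 0.000131) and -4.50 ± 0.45 for Fcrla (adjusted p = 1.25e-08), again 2 of 5, where 8.76% were. Bst1, Bcar3 and Capn2 did not pass in either, with adjusted p from 0.112 to 0.89. For Pax5+/-;Myd88+/-, however, Bst1 was called with array weights (-1.68, adjusted p = 0.0196) and without Pax5+/-;Myd88+/- leukemia replicate 3 (-2.06, adjusted p = 0.022). Leukemic state, culture, cell source and experiment cannot be told apart in this test. Fcrla was already low in the WT samples of the proB experiment, 6.42 against 11.34 in the sorted WT cells.

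Over all 7 groups, as a description, the order of the means differed from gene to gene. Sorted WT cells were highest for Cd72 (11.96 ± 0.30, SD, n = 4), Fcrla (11.34 ± 0.08) and Bst1 (10.84 ± 0.06). Bcar3 was highest in proB WT cells (8.77 ± 0.17) and Capn2 in Pax5+/- leukemias (9.12 ± 0.53, n = 6). Cd72 was lowest in Pax5+/- leukemias (7.89 ± 1.37), Bst1 in proB Pax5+/- cells (7.22 ± 0.16), and Capn2 in proB Pax5+/-;Myd88+/- cells (6.67 ± 0.11). Pax5 had sorted WT and proB WT cells first and second, 11.92 ± 0.10 and 11.70 ± 0.14. Below them the 5 groups with 1 intact germline allele lay from 11.21 to 10.79. None of these neighbours differed by more than the larger of their SDs. For Fcrla only the first step did not overlap, from sorted WT to Pax5+/- leukemias. For Cd72 the first and second steps, from sorted WT to proB Pax5+/- and then to proB Pax5+/-;Myd88+/- cells, did not. For Bcar3, 2 steps did not overlap, from proB Pax5+/-;Myd88+/- to proB Pax5+/- cells and on to sorted WT cells. For Capn2, 2 steps did not, from proB Pax5+/- to proB WT cells and from proB Pax5+/-;Myd88-/- to proB Pax5+/-;Myd88+/- cells. For Bst1 every neighbouring pair overlapped.

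Among the leukemias no relation of the 5 genes to the measured Pax5 level passed the test. In a limma fit on Pax5 with genotype as a second term, the slopes (log2 per log2 of Pax5) were 0.48 ± 0.24 for Cd72, 0.20 ± 0.26 for Bst1, 0.08 ± 0.13 for Bcar3, -0.19 ± 0.15 for Fcrla and -0.25 ± 0.15 for Capn2. None of the 5 had an adjusted p under 0.05 (range 0.731 to 0.965), nor did any other probeset (0% of 28943), and at an unadjusted p under 0.05 the count was 0 of 5 against 7.28% of all. Over the 12 leukemias Cd72 had the largest correlation of the 5, with a Pearson r of 0.49 (permutation p = 0.1) and a Spearman rho of 0.51 (permutation p = 0.0914). Its r was 0.61 within Pax5+/-;Myd88+/- leukemias (exact permutation p = 0.214) and 0.47 within Pax5+/- leukemias (exact permutation p = 0.404). Without the 2 leukemias farthest from the median Pax5 level, Pax5+/- replicate 2 and Pax5+/-;Myd88+/- replicate 5, it was 0.31 (permutation p = 0.384). The slope of Cd72 moved the other way, to 0.85 without Pax5+/- replicate 2 and to 1.05 ± 0.32 (adjusted p = 0.817) without the 4 leukemias low in B lineage markers. Capn2 ran opposite, with an r of -0.38 (permutation p = 0.211) and a rho of -0.44 (permutation p = 0.149), an r of -0.24 without those 2, and an r of -0.7 within Pax5+/- leukemias (exact permutation p = 0.146). Fcrla, Bst1 and Bcar3 had an r of -0.35, 0.24 and 0.17 and a rho of -0.38, 0.25 and 0.09 (permutation p from 0.217 to 0.77). Bst1 had an r of 0.73 within Pax5+/-;Myd88+/- leukemias (exact permutation p = 0.115) and -0.03 within Pax5+/- leukemias (exact permutation p = 0.932), and Fcrla had -0.44 without the 2 farthest (permutation p = 0.207). In all, 5 genes were related to Pax5 over 4 sets of leukemias, with 2-sided tests, and the smallest of these p-values is the 0.0914 given for Cd72.

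**Figure D4:**
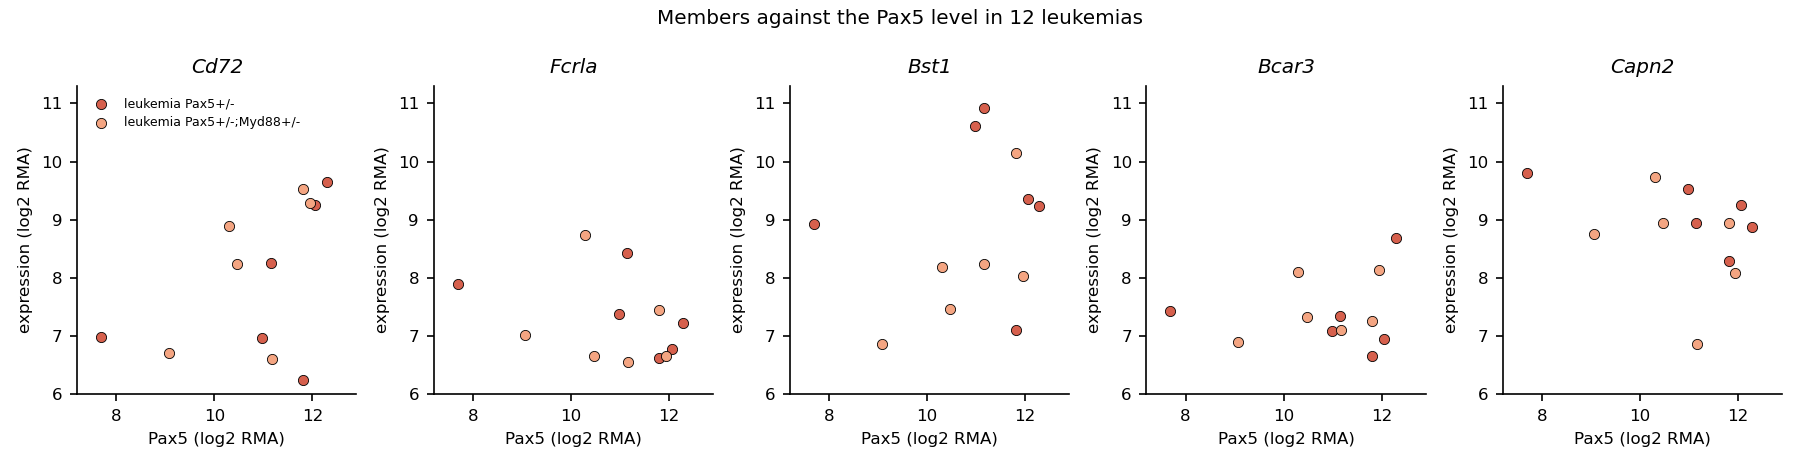
Expression of each gene (vertical, log2 RMA) against Pax5 (horizontal, log2 RMA) in 12 leukemias, with 1 point per leukemia and colours for the 2 genotypes. The point at the far left of each panel is Pax5+/- replicate 2, with Pax5 at 7.69.

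As a description over 32 arrays that share groups, Pearson r between gene pairs ran from -0.67 (Bcar3 with Capn2) to 0.68 (Fcrla with Bst1), and Cd72 with Fcrla gave 0.65. Among the 12 leukemias the highest were 0.66 for Cd72 with Bcar3 and 0.63 for Fcrla with Capn2, and Bcar3 with Capn2 gave 0.15. The genes most like each one over 32 arrays, of 18286 searched, were Glcci1, Tmprss3 and Car15 for Cd72 (r of 0.91, 0.88 and 0.86), Arhgap24, Myzap and Adam19 for Fcrla (0.97, 0.96 and 0.96), and Hmgn2, Nsmce2 and Dek for Bst1 (0.84, 0.83 and 0.82). For Bcar3 they were Bahcc1, Kcnk10 and Ppip5k1 (0.88, 0.88 and 0.87), and for Capn2 Mgrn1, Cnn2 and Sla (0.87, 0.86 and 0.86). Over the 12 leukemias the most similar genes were Adam30 for Cd72 (0.86), Cyp27a1 for Fcrla (0.9), Rnase9 for Bst1 (0.91), Fcrlb for Bcar3 (0.93) and Trim3 for Capn2 (0.84). None of these 5 was among the 3 most similar over 32 arrays.

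Of 21 other measured genes listed as activated by Pax5, 13 fell and none rose in Pax5+/-;Myd88+/- leukemias against sorted WT cells. There 4.3% of all probesets were called lower, and the list median was -1.56, against -0.01 over all probesets. In Pax5+/- leukemias 8 fell and none rose, where 1.72% of all probesets were called lower (median -1.11 against -0.03). The largest falls in Pax5+/-;Myd88+/- leukemias were of Ikzf3 (Aiolos, -4.66 ± 0.47), Lef1 (-3.48 ± 0.90), Bach2 (-3.42 ± 0.32) and Vpreb3 (-2.98 ± 1.04), and in Pax5+/- leukemias of Ikzf3 (-3.56 ± 0.47), Bach2 (-2.98 ± 0.32), Lef1 (-2.72 ± 0.90) and Blnk (-2.45 ± 0.75), the adaptor of pre-B-cell receptor signalling. Ikzf3, Lef1 and Bach2 encode transcription factors. None of the 21 was called between the leukemia genotypes, where 3.82% of all probesets were.

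In proB cells most of that list was not called. Pax5+/- against WT cells had 1 called gene of the 21, where 1.08% of all probesets were called, and a list median of -0.13. It was Spib, a partner factor of B-cell genes, at -1.42 ± 0.14 (adjusted p = 5.06e-06). At any size, Cplx2, Prkd2, Cd79a, Id3 and Sdc4 were also lower and Cd22, Irf4 and Ebf1 higher at an adjusted p under 0.05. Their adjusted p ran from 1.74e-05 (Cplx2) to 0.0159 (Sdc4), and 7.06% of all probesets were under 0.05. Pax5+/-;Myd88+/- against WT, where 1.15% of all probesets were called, had Slamf6, a surface receptor of lymphocytes, at 3.33 ± 0.10 and Spib at -1.11 ± 0.14. Slamf6 was at 9.45 to 9.95 in Pax5+/-;Myd88+/- cells and at 5.96 to 6.56 in the other 3 proB groups. Pax5+/-;Myd88-/- cells had Ikzf3 lower than WT (-1.44 ± 0.12), lower than Pax5+/- (-1.77 ± 0.12) and lower than Pax5+/-;Myd88+/- cells (-1.64 ± 0.12). Between the experiments, 5.79% of all probesets were called for Pax5+/- and 8.76% for Pax5+/-;Myd88+/-. Of the 21 genes, 5 and 10 in that order were called lower in the leukemia change than in the proB change, and none higher. For Pax5+/- these were led by Ikzf3 (-3.89), Irf4 (-3.01), Bach2 (-2.84) and Blnk (-2.48), and for Pax5+/-;Myd88+/- by Ikzf3 (-4.85), Slamf6 (-4.73), Vpreb3 (-3.41) and Bach2 (-3.39). Slopes on Pax5 among the leukemias were above 0 for 16 of the 21, against 60% of all probesets. None had an adjusted p under 0.05, and 7 of the 21 had an unadjusted p under 0.05, against the 7.28% of all probesets given above. Of these 7, Irf8 had a slope below 0 (-0.54 ± 0.19) and the rest had slopes above 0.

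**Figure D5:**
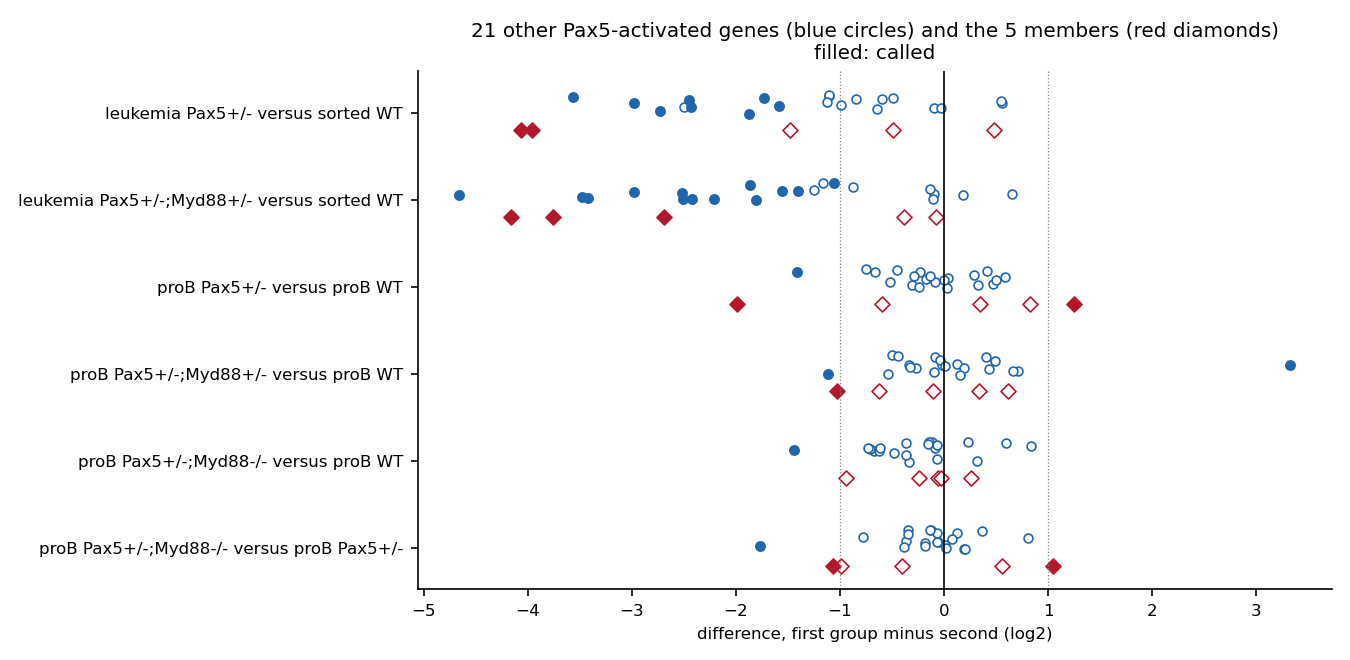
Differences (log2, first group minus second) of the 21 other Pax5-activated genes (blue circles) and of the 5 genes described here (red diamonds) in 6 comparisons, filled where called. The filled points lie left of -1 in both leukemia comparisons, whereas in the proB comparisons few points pass the dotted lines at -1 and 1.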

How the data were processed

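The authors scanned MoGene 1.0 ST arrays and deposited gene-level log2 values from the robust multi-array average (RMA), made with the Transcriptome Analysis Console (version 4.0.1) on an mm10 annotation; whether all 32 arrays were normalized together is not given in the sources used here. The number of arrays limits the precision, and nothing says that samples of a group are independent beyond their labels, so p-values measure the spread between these samples.

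From the 28944 deposited probesets, limma 3.58.1 (R 4.3.3) fitted 1 mean per group within each experiment, with Benjamini-Hochberg adjustment over all probesets. All 7 groups entered 1 fit for differences between experiments. Relations to Pax5 used a limma slope with genotype and 2-sided permutation tests (scipy 1.17.1). The fit was tested on simulated data. Calls needed a log2 change beyond 1 in size and an adjusted p under 0.05. The members, marker lists and the list of other Pax5-activated genes (23 listed, 21 with a probeset of their own) were chosen with earlier results of these data known. Named were all 5 genes, Pax5, the 4 called genes with the largest change of the other list in each comparison, and the genes most correlated with each member. Naming of Xist and Myd88 served to check labels.

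No main fit paired samples by replicate number, and a block on it was run only as an alternative. All 4 same-numbered pairs of deviations correlated above 0.1 only between Pax5+/-;Myd88-/- and WT proB cells (0.12 to 0.22). Differently numbered pairs there reached 0.21, and 2 of 4 arrays were most like their own number, so these correlations cannot establish a pairing. Settings also tried were a fit of all arrays together, a fit of the compared groups alone, array weights, limma-trend, median centring and a filter on dim probesets (mean under 6). Others were an unpaired t-test, the threshold of the methods (unadjusted p under 0.05 and fold change over 2), the replicate block, averaged WT pairs and each array left out.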

Additional observations from a re-analysis of the deposited data

Results flagged for a closer look

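In Pax5+/- leukemias, Pax5 of replicate 2 was 7.69, far below the next sample at 10.98. In proB cells, Bst1 of Pax5+/- replicate 1 was 6.99, with the next at 7.27. Fcrla of Pax5+/-;Myd88-/- replicate 3 was 6.52, with the next at 6.33. Capn2 of Pax5+/-;Myd88-/- replicate 1 was 7.16, with the next at 7.02. These 4 samples lay far from the rest of their group among 42 sets of gene and group tested, of which chance marks about 5%.

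The change against WT differed between leukemias and proB cells for Cd72, by -5.31 for Pax5+/- (adjusted p = 2.49e-05) and -4.37 for Pax5+/-;Myd88+/- (adjusted p = 0.000131). For Fcrla it differed by -4.3 (adjusted p = 8.59e-08) and -4.5 (adjusted p = 1.25e-08). Both tests come from limma over all 32 arrays.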

How the results depend on the processing

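Over 60 results of single genes and 1265 alternatives, 1230 kept the call or its absence, 16 lost the call and 19 gained it. No called value changed sign, while 11 uncalled results turned sign or reached 0 in 27 alternatives. The calls of Cd72 and Fcrla in leukemias against sorted WT cells held in every alternative run. With all 32 arrays in 1 fit, the number of the 5 genes called was 3 in Pax5+/- leukemias against sorted WT cells (2 in the per-experiment fit), 1 between the leukemia genotypes (0), 0 in Pax5+/- against WT proB cells (2), 0 in Pax5+/-;Myd88+/- against WT (1) and 0 in Pax5+/-;Myd88-/- against Pax5+/- (2), and the counts at any size in Pax5+/- against WT and the last of these were 0 and 0 (5 and 5). With an unpaired t-test, adjusted, the counts were 1, 0 and 1 for these proB comparisons in that order, and 3 at any size in Pax5+/- against WT, as with averaged WT pairs (3). With only the compared groups, Pax5+/-;Myd88+/- against WT had 0. With array weights, Pax5+/-;Myd88-/- against WT had 1, and Bst1 was gained in Pax5+/- leukemias against WT and in the difference between experiments for Pax5+/-;Myd88+/-. Leaving out single arrays gave 0 to 1 between leukemia genotypes, 0 to 1 in Pax5+/-;Myd88+/- and in Pax5+/-;Myd88-/- against WT, 1 to 2 in Pax5+/-;Myd88+/- against Pax5+/-, and 1 to 3 in Pax5+/-;Myd88-/- against Pax5+/-. With the replicate block, the counts called were 3, 2 and 0 in the leukemia comparisons and 2 in Pax5+/- against WT proB cells, and no call changed; the count at any size there was 4. The cause of these moves was not tested. Each gene has 1 probeset, so averaging probesets changes nothing. Values low on the array, such as Fcrla in proB cells, limit small differences.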
